A study of Homo sapiens with 12 samples.

Results

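The mitochondrial genome transcripts were followed in A375, an established human melanoma cell line, as the 37 genes whose symbols begin with MT- among the 56609 symbols of the count table. They comprised 13 protein-coding genes, each counted as an mRNA here, 2 ribosomal RNA genes and 22 tRNA genes. Cells were either wild type or carried a CRISPR/Cas9 knockout of MAPKAPK2, which encodes the stress kinase MK2, and each genotype received either JQ1 at 500 nM or DMSO for 48 h. JQ1 blocks the bromodomains of BET proteins, which read acetylated histones. The 4 groups, wild type with DMSO, wild type with JQ1, knockout with DMSO and knockout with JQ1, held 3 replicates each. All 12 cultures grew in DMEM with serum. The study asked how loss of MAPKAPK2 favours resistance to BET inhibitors. Sample titles call the cultures without JQ1 untreated while their treatment field says DMSO, and the treatment field was followed. The labels do not say whether the knockout line was 1 clone or whether replicates were separate cultures, so p-values measure the spread between these samples, which may be technical.

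Human mitochondrial DNA is a small circle transcribed from both strands into long precursors. The tRNAs lie between most of the mRNAs and rRNAs, and their excision releases the neighbouring transcripts. The mRNAs encode core subunits of respiratory complexes I, III and IV and of ATP synthase, while the remaining subunits, the mitochondrial ribosomal proteins and the RNA polymerase come from nuclear genes. MT-ND6 and 8 of the tRNAs are annotated on the minus strand and are transcribed from the light-strand promoter; the other members are on the plus strand.

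A set of 4 neighbouring tRNA genes on the minus strand carried one of the clearest differences between the genotypes, and their sequences are therefore shown. They come from the GENCODE release 29 transcripts on GRCh38, 5′ to 3′, as DNA letters, with the anticodon in capitals. MT-TA, the tRNA for alanine, lies at chrM:5587-5655, MT-TN, for asparagine, at chrM:5657-5729, MT-TC, for cysteine, at chrM:5761-5826, and MT-TY, for tyrosine, at chrM:5826-5891. MT-TC and MT-TY share 1 base.
MT-TA: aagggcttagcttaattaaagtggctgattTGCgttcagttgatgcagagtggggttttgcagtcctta
MT-TN: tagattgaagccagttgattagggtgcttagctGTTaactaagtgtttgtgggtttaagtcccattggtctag
MT-TC: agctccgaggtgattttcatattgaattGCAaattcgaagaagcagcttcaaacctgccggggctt
MT-TY: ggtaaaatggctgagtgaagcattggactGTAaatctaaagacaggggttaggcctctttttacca
The 4 genes are 69, 73, 66 and 66 bases long, with GC contents of 43.5%, 41.1%, 45.5% and 42.4%. Their neighbour MT-TW, the tRNA for tryptophan, lies on the plus strand at chrM:5512-5579.

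Libraries held 25316565 to 34594025 estimated counts. MAPKAPK2 itself stood at 87.9 to 120 CPM (counts per 1000000 of the TMM-scaled library) in the 6 wild-type libraries and at 11.1 to 15.7 in the 6 knockout libraries. Among melanocytic markers, SOX10 (389 to 687 CPM), MITF (25.6 to 44.1) and S100B (27.8 to 49.1) were present, while the pigmentation genes PMEL, MLANA, TYR, DCT and TYRP1 were at or near 0. The summed level of 7 markers of keratinocytes, fibroblasts, leukocytes and endothelium was 7.55 to 9.51 CPM in the DMSO libraries and 2.27 to 3.47 CPM in the JQ1 libraries, with LUM going from 3.86 to 0.504 CPM on average in wild-type cells; KRT5, of the keratinocyte markers, was at or near 0. The part of this treatment difference in the JQ1 results was not tested. The abundant noncoding RNAs RMRP, RN7SL1, RN7SL2 and RN7SK took, as a sum, 9.42% to 14.6% of a library. That share was 1.15 times higher in knockout than in wild-type libraries (exact permutation test, two-sided, p = 0.015) and 1.15 times higher with JQ1 than with DMSO (p = 0.01). The highest share, 14.6%, was in knockout JQ1 replicate 3.

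Mitochondrial transcripts took a smaller share of the library in knockout cells than in wild-type cells, in both treatments. The share was 1.95%, 1.97% and 1.8% in the wild-type DMSO libraries and 1.9%, 1.84% and 1.84% in the wild-type JQ1 libraries. It was 1.51%, 1.72% and 1.57% in the knockout DMSO libraries and 1.48%, 1.6% and 1.59% in the knockout JQ1 libraries. Every knockout library lay below every wild-type library. Averaged over treatments the knockout share was 0.838 times the wild-type share, a log2 difference of -0.26, with an exact permutation p of 0.005, two-sided, the smallest that the 400 relabellings within treatments can give. The difference was -0.25 with DMSO and -0.26 with JQ1, each with an exact permutation p of 0.1, the smallest possible for 3 against 3. Between JQ1 and DMSO the share did not differ beyond the spread of the libraries: averaged over genotypes the log2 difference was -0.04, a ratio of 0.974, with an exact permutation p of 0.35. The direction depended on the denominator, since against TMM-scaled nuclear counts the log2 difference was 0.08 (exact permutation p = 0.05), while the knockout difference was -0.22 (p = 0.005) on that scale. In bulk RNA, a lower level in some of the cells and less mitochondrial RNA in each cell cannot be told apart.

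The 3 classes of transcript were very unequal in depth and did not follow each other. The mRNAs held 99.7% to 99.9% of the members' counts, and their share of the library differed between genotypes by the same log2 -0.26 (exact permutation p = 0.005). The tRNAs held only 717 to 1417 counts per library. Their share was 0.00271%, 0.0027% and 0.00279% in wild-type DMSO libraries and 0.00343%, 0.0032% and 0.00391% in wild-type JQ1 libraries. It reached 0.00319%, 0.00378% and 0.00368% in knockout DMSO libraries and 0.00377%, 0.00433% and 0.00415% in knockout JQ1 libraries. The summed tRNA share was lowest in the wild-type DMSO group, which overlapped with no other group. This sum was 1.23 times higher in knockout cells averaged over treatments and 1.22 times higher with JQ1 averaged over genotypes (exact permutation p = 0.01 for each). The separation of the wild-type groups rested on 1 gene, MT-TS1. Without MT-TS1, a sum chosen after the data were seen, the share was 0.00258%, 0.00241% and 0.00241% in wild-type DMSO libraries and 0.00245%, 0.0025% and 0.00251% in wild-type JQ1 libraries, which overlapped. On the same sum the knockout libraries, at 0.00274% to 0.0031% with DMSO and 0.00307% to 0.00355% with JQ1, lay above all wild-type libraries. The averaged knockout ratio was then 1.25 (exact permutation p = 0.005), and the averaged JQ1 ratio 1.08 (p = 0.09). Much of this sum came from the 4 neighbouring tRNA genes shown above. On average they gave 244 of 764 counts in wild-type DMSO libraries and 211 of 791 in wild-type JQ1 libraries. In knockout libraries they gave 424 of 831 counts with DMSO and 400 of 976 with JQ1. The sum without them was not tested, so the ratio of 1.25 is not read as a rise of the tRNAs as a class. The share of the 4 nuclear noncoding RNAs moved in the same directions (1.15 times in each case), and its part in the tRNA result was not tested.

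**Figure D1:**
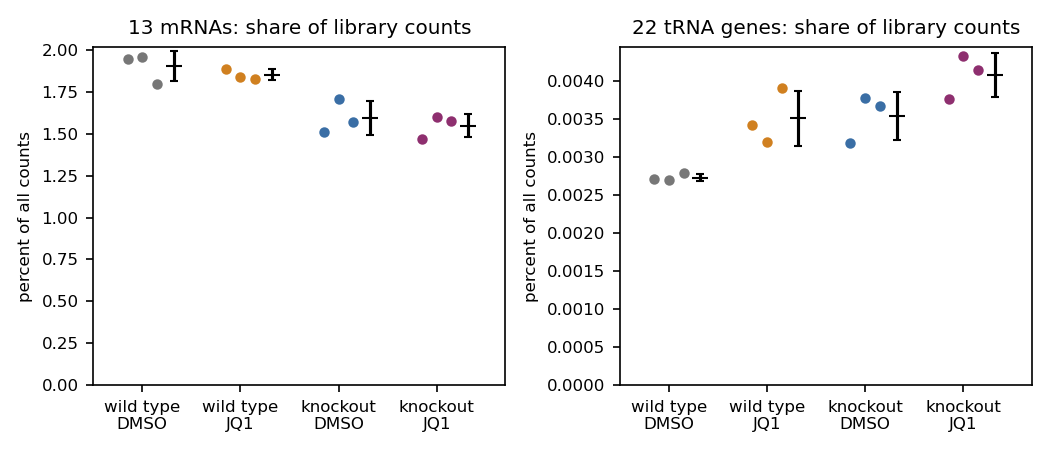
Share of library counts (percent, vertical axis from 0) taken by the 13 mitochondrial mRNAs (left) and the 22 tRNA genes (right) in each group; points are libraries and bars the mean ± SD of 3 replicates. The knockout libraries lie between 1.47% and 1.71% for the mRNAs, below all wild-type libraries, while the tRNA share is lowest in wild-type cells with DMSO, a separation from wild-type JQ1 that rests on MT-TS1.

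The rRNAs MT-RNR1 and MT-RNR2, the small and large rRNA of the mitochondrial ribosome, were nearly absent from these libraries, whose RNA had been depleted of ribosomal RNA. Their summed counts were 18, 341 and 20 in wild-type DMSO libraries, 80, 7 and 46 in wild-type JQ1 libraries, 11, 12 and 9 in knockout DMSO libraries and 61, 69 and 66 in knockout JQ1 libraries. Wild-type DMSO replicate 2 stood apart, with 139 counts of MT-RNR1 and 202 of MT-RNR2. The rRNA share differed by a log2 of -0.43 between genotypes (exact permutation p = 0.65) and of 0.91 between treatments (p = 0.4), and without wild-type DMSO replicate 2 the treatment difference was 1.66 (p = 0.03). What remained after depletion cannot be read as the level of the rRNAs in the cells.

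Among the mRNAs, levels per length spanned a wide range. In wild-type DMSO libraries MT-CO1, the catalytic subunit of complex IV, was highest at 3606 ± 171 CPM per kb (SD, n = 3). Next came MT-CO3 at 2413 ± 60.9 and MT-CO2 at 2377 ± 141 CPM per kb, the other mitochondrially encoded subunits of complex IV, whose libraries overlapped with each other. MT-ATP6, a membrane subunit of ATP synthase, followed at 2107 ± 87.1 CPM per kb, below all libraries of both. MT-ND4 (1622 ± 80.8) and MT-ATP8 (1526 ± 115) overlapped, as did MT-ND2 (1266 ± 65.4) and MT-ND4L (1211 ± 121 CPM per kb). MT-CYB, the mitochondrially encoded subunit of complex III, had 1036 ± 32.4 CPM per kb and MT-ND3 765 ± 47.7. The lowest levels per length were those of the complex I subunits MT-ND5 (570 ± 27) and MT-ND6 (541 ± 31.2), which overlapped, and MT-ND1 (485 ± 13.8 CPM per kb). MT-ND6 was the single mRNA read from the minus strand. The plot of levels per length sets the 4 groups side by side.

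**Figure D2:**
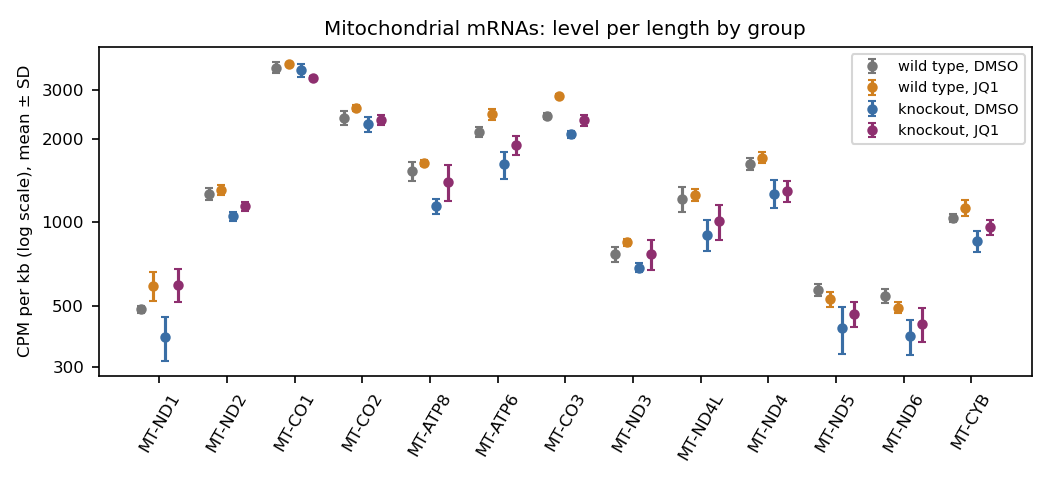
Level of each mitochondrial mRNA per length (CPM per kb, log scale) in the order of the genome, as the mean ± SD of 3 libraries in each of the 4 groups. MT-CO1 is highest in every group, and for each of the other mRNAs the knockout DMSO mean is the lowest of the 4.

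Knockout of MAPKAPK2 went with lower levels of most mitochondrial mRNAs. Of the 37 members 28 passed the filter on low counts, and in the contrast of knockout against wild type averaged over treatments 6 were called higher and 9 lower (edgeR quasi-likelihood test, Benjamini-Hochberg adjusted p under 0.05). Over all 21698 genes tested, 14.8% were called in that contrast, 6.48% higher and 8.27% lower. All 9 members called lower were mRNAs, and all 6 called higher were tRNAs. The 13 mRNAs had log2 fold changes from -0.38 to -0.10 with a median of -0.26, beside a median of 0.00 over all genes.

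The subunits of ATP synthase were among those that fell. MT-ATP6 stood at 1471, 1468 and 1367 CPM in wild-type DMSO libraries, 1756, 1646 and 1605 in wild-type JQ1 libraries, 971, 1216 and 1111 in knockout DMSO libraries and 1224, 1239 and 1402 in knockout JQ1 libraries. Within each treatment every knockout library was below every wild-type library. Its log2 fold change was -0.38 (SE 0.05, adjusted p = 0.00016). MT-ATP8, whose reading frame overlaps that of MT-ATP6 by 46 bases, fell by 0.32 on the log2 scale (SE 0.06, adjusted p = 0.00239). Reads in the shared bases, and in the 7 bases shared by MT-ND4L and MT-ND4, cannot be assigned to 1 gene. The genes of each pair are not read as independent changes.

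Of the complex I subunits, MT-ND4 showed the clearest separation. It had 2225, 2350 and 2128 CPM in wild-type DMSO libraries and 2442, 2374 and 2230 in wild-type JQ1 libraries. Knockout libraries held 1550, 1954 and 1732 CPM with DMSO and 1608, 1813 and 1921 with JQ1, all 6 below all 6 wild-type libraries. The log2 fold change was -0.38 (SE 0.06, adjusted p = 0.000274). MT-ND4L (-0.37), MT-ND6 (-0.34), MT-ND5 (-0.32) and MT-ND2 (-0.23) also fell, with adjusted p from 0.000484 to 0.0121. MT-ND1 (-0.16, adjusted p = 0.269) and MT-ND3 (-0.15, adjusted p = 0.0863) did not pass the test.

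In complexes III and IV, MT-CYB fell by 0.25 on the log2 scale (SE 0.05, adjusted p = 0.00212) and MT-CO3 fell by 0.26 (SE 0.03, adjusted p = 4.54e-05). MT-CO3 stood at 1913, 1925 and 1837 CPM in wild-type DMSO libraries, 2273, 2243 and 2190 in wild-type JQ1 libraries, 1580, 1674 and 1615 in knockout DMSO libraries and 1814, 1903 and 1751 in knockout JQ1 libraries. The knockout libraries lay below the wild-type libraries within each treatment. The other complex IV subunits had smaller differences that missed the threshold, -0.11 for MT-CO2 (adjusted p = 0.0888) and -0.10 for MT-CO1 (adjusted p = 0.0715). MT-CO1, the most abundant member, had 5771, 5646 and 5266 CPM in wild-type DMSO libraries, 5760, 5714 and 5680 in wild-type JQ1 libraries, 5543, 5681 and 5081 in knockout DMSO libraries and 5110, 5071 and 5172 in knockout JQ1 libraries. With DMSO the genotypes overlapped for MT-CO1, and with JQ1 they did not.

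For most mRNAs the same direction held in both treatments taken singly. All 13 had a negative log2 fold change with DMSO and 12 with JQ1, where MT-ND1 had 0.01 after -0.33 with DMSO. The rRNAs MT-RNR1 and MT-RNR2 had -3.07 and -3.95 with DMSO and 0.76 each with JQ1, and were not called. With DMSO, 6 members were called higher and 9 lower (7.92% of all genes were called, 3.47% higher and 4.44% lower), and the 9 were the same mRNAs as in the averaged contrast. With JQ1, 6 were called higher and 4 lower (8.57% of all genes, 3.01% higher and 5.56% lower); the 4 were MT-ND2 (-0.19), MT-ATP6 (-0.37), MT-CO3 (-0.29) and MT-ND4 (-0.40). The tRNAs called higher with both were MT-TA, MT-TN, MT-TC, MT-TY and MT-TL2, joined by MT-TS1 with DMSO and by MT-TL1 with JQ1. The median log2 fold change of the mRNAs was -0.33 with DMSO and -0.19 with JQ1. No mRNA was called in the test of that difference (edgeR interaction term), and none had an unadjusted p under 0.05 there. The call of MT-ND2 with JQ1 (adjusted p = 0.0373) was lost in 12 of 23 alternative analyses, and its direction turned in 1 of them (0.04, with the 13 mRNAs as library size). The 2 comparisons have no libraries in common.

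**Figure D3:**
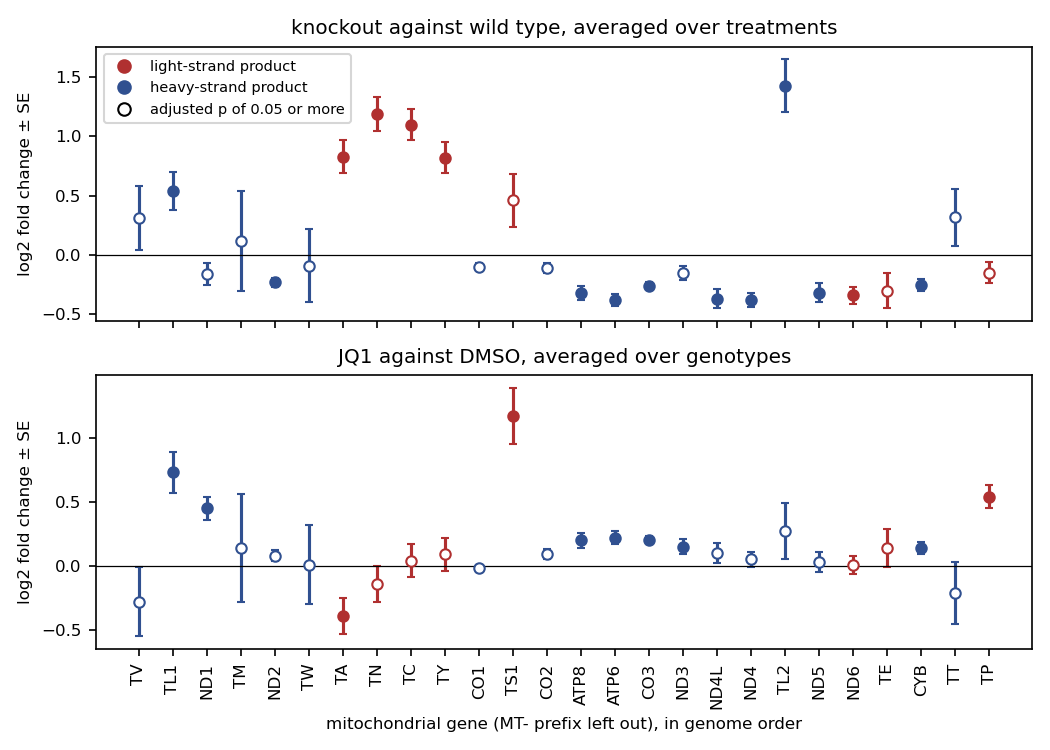
Log2 fold change of each tested mRNA and tRNA in the order of the genome (horizontal axis) for the averaged knockout and JQ1 contrasts, with bars of 1 SE; red marks genes annotated on the minus strand (light-strand promoter), blue those on the plus strand, and open circles an adjusted p of 0.05 or more. In the knockout contrast the mRNAs sit between -0.38 and -0.10, and the neighbouring tRNAs MT-TA, MT-TN, MT-TC and MT-TY sit between 0.82 and 1.19.

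Against this background the 4 neighbouring tRNAs shown above rose in knockout cells. MT-TC had 2.95, 2.69 and 3.82 CPM in wild-type DMSO libraries and 3.27, 3.15 and 2.75 in wild-type JQ1 libraries. It had 6.8, 7.21 and 5.09 CPM in knockout DMSO libraries and 7.12, 5.32 and 8.52 in knockout JQ1 libraries, all above every wild-type library. Its log2 fold change averaged over treatments was 1.10 (SE 0.13, adjusted p = 4.11e-05).

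MT-TN behaved alike, with 1.01, 1.31 and 1.37 CPM in wild-type DMSO libraries, 1.22, 0.928 and 1.09 in wild-type JQ1 libraries, 2.73, 2.82 and 2.7 in knockout DMSO libraries and 2.36, 3.29 and 2.06 in knockout JQ1 libraries. The genotypes did not overlap (log2 fold change 1.19, SE 0.14, adjusted p = 3.57e-05). MT-TY ran from 1.25 to 1.97 CPM in the 6 wild-type libraries and from 2.53 to 3.26 in the 6 knockout libraries, again without overlap (0.82, SE 0.13, adjusted p = 0.000542). MT-TA had 1.25, 1.74 and 1.57 CPM in wild-type DMSO libraries, 0.911, 1.11 and 1.06 in wild-type JQ1 libraries, 2.63, 2.27 and 2.28 in knockout DMSO libraries and 2.28, 2.31 and 1.58 in knockout JQ1 libraries. Knockout JQ1 replicate 3 lay within the wild-type DMSO range, and the log2 fold change was 0.83 (SE 0.14, adjusted p = 0.000778).

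Summed over the 4 genes, the level was 6.47, 7.58 and 8.3 CPM in wild-type DMSO libraries, 6.75, 7.16 and 6.66 in wild-type JQ1 libraries, 14.7, 15.6 and 12.6 in knockout DMSO libraries and 14.6, 14 and 14.9 in knockout JQ1 libraries. The 4 genes were set together for the difference they showed, so their sum adds no support to it. These sums rest on 193 to 471 counts per library. All 4 genes were called in the averaged contrast in each of its 22 alternative analyses, and MT-TN and MT-TC also with DMSO and with JQ1 singly. With DMSO alone MT-TA passed narrowly (adjusted p = 0.0473) and lost the call in 16 of 23 alternatives. Of the other tested minus-strand members, MT-TE, for glutamate (-0.30, adjusted p = 0.208), and MT-TP, for proline (-0.15, adjusted p = 0.309), did not pass the test, and MT-ND6 fell. MT-TS1, for serine, was not called in the averaged contrast (0.46, adjusted p = 0.197); it rose with DMSO (1.38, adjusted p = 0.0162), while with JQ1 its fold change was -0.46 (adjusted p = 0.423). MT-TW, the plus-strand neighbour, had a log2 fold change of -0.09 and was not called.

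Another pair of tRNAs rose in the knockout from other places in the genome. MT-TL2, for leucine, lies on the plus strand beside MT-ND5. It had 0.268, 0.283 and 0.247 CPM in wild-type DMSO libraries, 0.345, 0.186 and 0.355 in wild-type JQ1 libraries, 0.577, 0.687 and 0.772 in knockout DMSO libraries and 0.952, 0.974 and 0.696 in knockout JQ1 libraries. The genotypes were fully apart (log2 fold change 1.43, SE 0.22, adjusted p = 0.000344), on only 5 to 25 counts per library. MT-TL1, the other tRNA for leucine, differed in the averaged contrast by 0.54 (SE 0.16, adjusted p = 0.0326), a call lost in 7 of 22 alternatives. Whether the counts of any tRNA came from mature tRNA or from unprocessed precursor was not tested. Where counting ignored the strand, which is not given in the sources used here, reads of precursors from the opposite strand would also be included.

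Treatment with JQ1 changed fewer members. Averaged over genotypes, 9 members were called higher and 1 lower, where 45.7% of all genes were called, 22.4% higher and 23.4% lower. Of the 13 mRNAs 6 rose, with a median log2 fold change over all 13 of 0.10 beside -0.02 over all genes. These differences depended on scaling: with library totals in place of TMM the median of all genes moved to -0.15, and 4 members were called higher and 2 lower. In wild-type cells 4 members were called, all higher (33.1% of all genes were called, 16.9% higher and 16.2% lower). In knockout cells 6 were called, all higher (34.4% of all genes, 16.7% higher and 17.8% lower). The summed markers of other cell types stated above were also lower with JQ1 in both genotypes, without overlap. With library totals the counts of members were 1 higher and 2 lower in wild-type cells, and 3 higher and 1 lower in knockout cells. Shares of all genes called with library totals are not given here, so these counts are not read as particular to the members.

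MT-ND1, a complex I subunit, had the largest change with JQ1 among the mRNAs. It stood at 471, 473 and 449 CPM in wild-type DMSO libraries, 635, 558 and 500 in wild-type JQ1 libraries, 294, 420 and 393 in knockout DMSO libraries and 490, 568 and 648 in knockout JQ1 libraries. All 6 JQ1 libraries were above all 6 DMSO libraries. The log2 fold change was 0.45 averaged over genotypes (SE 0.09, adjusted p = 0.000549), 0.28 in wild-type cells (adjusted p = 0.0937) and 0.62 in knockout cells (adjusted p = 0.00109), and the difference between the genotypes was not called (0.34, adjusted p = 0.625). As a share of the mitochondrial mRNA counts, MT-ND1 took 2.58% ± 0.0348 (SD, n = 3) in wild-type DMSO libraries, 2.94% ± 0.263 in wild-type JQ1 libraries, 2.36% ± 0.329 in knockout DMSO libraries and 3.46% ± 0.324 in knockout JQ1 libraries. On this scale, too, JQ1 and DMSO libraries did not overlap.

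MT-CO3 rose by a log2 of 0.20 with JQ1 (SE 0.03, adjusted p = 8.7e-05), MT-ATP6 by 0.22 (SE 0.05, adjusted p = 0.00302) and MT-ATP8 by 0.20 (SE 0.06, adjusted p = 0.0186). MT-ND3 (0.15, adjusted p = 0.0337) and MT-CYB (0.14, adjusted p = 0.0258) also passed, MT-ND3 losing the call in 10 of 22 alternatives. For MT-ND4 (0.05), MT-ND5 (0.03), MT-ND6 (0.01) and MT-CO1 (-0.02) the fold changes were near 0. With library totals in place of TMM the JQ1 calls of MT-ATP6 (0.10, adjusted p = 0.129), MT-ATP8 (0.07, adjusted p = 0.34), MT-CO3 (0.08, adjusted p = 0.0712) and MT-CYB (0.02, adjusted p = 0.758) were all lost, and that of MT-CYB was lost in 6 of 22 alternatives. MT-ND1 kept its call in all 22.

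Of the tRNAs, MT-TS1 had the largest change with JQ1, and it was seen in wild-type cells. MT-TS1 had 1.16, 2.73 and 3.57 CPM in wild-type DMSO libraries and 10.3, 7.35 and 14.1 in wild-type JQ1 libraries, with no overlap. In knockout cells it had 4.42, 6.66 and 8.46 CPM with DMSO and 7.46, 8.07 and 7.69 with JQ1, which overlapped. The log2 fold change with JQ1 was 2.09 in wild-type cells (SE 0.32, adjusted p = 0.00015) and 0.25 in knockout cells (SE 0.30, adjusted p = 0.568). The test of the difference gave -1.84 (SE 0.44), with an adjusted p of 0.193 in edgeR's quasi-likelihood test and of 0.00737 in DESeq2. No member was called in that interaction by edgeR with the filter on low counts, where 0.134% of all genes were called, 0.0323% higher and 0.101% lower. At an unadjusted p under 0.05 there were 5 in that fit, MT-TS1, MT-TL1, MT-TV, MT-RNR1 and MT-RNR2. Without the filter edgeR called 3, MT-TS1 (-1.85, adjusted p = 2.49e-09), MT-RNR1 and MT-RNR2, and DESeq2 called 1. The shares of all genes at the unadjusted cut-off, without the filter and in DESeq2 are not given here. These counts are therefore not read as particular to the members. The rRNA values include wild-type DMSO replicate 2, which stood apart with 139 counts of MT-RNR1 and 202 of MT-RNR2.

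MT-TL1 had the opposite arrangement. It stood at 1.1, 1.13 and 0.907 CPM in wild-type DMSO libraries, 1.44, 1.34 and 0.858 in wild-type JQ1 libraries, 0.834, 1.2 and 1.16 in knockout DMSO libraries and 2.28, 2.8 and 2.5 in knockout JQ1 libraries. Knockout JQ1 libraries were above all others. With JQ1 its log2 fold change was 1.25 in knockout cells (SE 0.22, adjusted p = 0.000435) and 0.21 in wild-type cells (SE 0.23, adjusted p = 0.533), but the difference of 1.04 was not called (adjusted p = 0.336). MT-TL1 lies between MT-RNR2 and MT-ND1. In knockout cells the JQ1 log2 fold change was 0.62 for MT-ND1. For MT-RNR2 it was 2.62 (adjusted p = 0.145), on the few counts that depletion left. A link between these neighbours was not tested.

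MT-TP was the most abundant tRNA in the wild-type DMSO libraries and rose with JQ1 in both genotypes. It had 11.1, 10.2 and 8.8 CPM in wild-type DMSO libraries, 13, 13.8 and 14 in wild-type JQ1 libraries, 8.05, 8.86 and 8.46 in knockout DMSO libraries and 10.6, 14.5 and 14.3 in knockout JQ1 libraries. Within each genotype the JQ1 libraries were above the DMSO libraries, and the averaged log2 fold change was 0.54 (SE 0.09, adjusted p = 0.000116). MT-TA was the single member called lower with JQ1 (-0.39, SE 0.14, adjusted p = 0.033), a call lost in 9 of 22 alternatives.

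**Figure D4:**
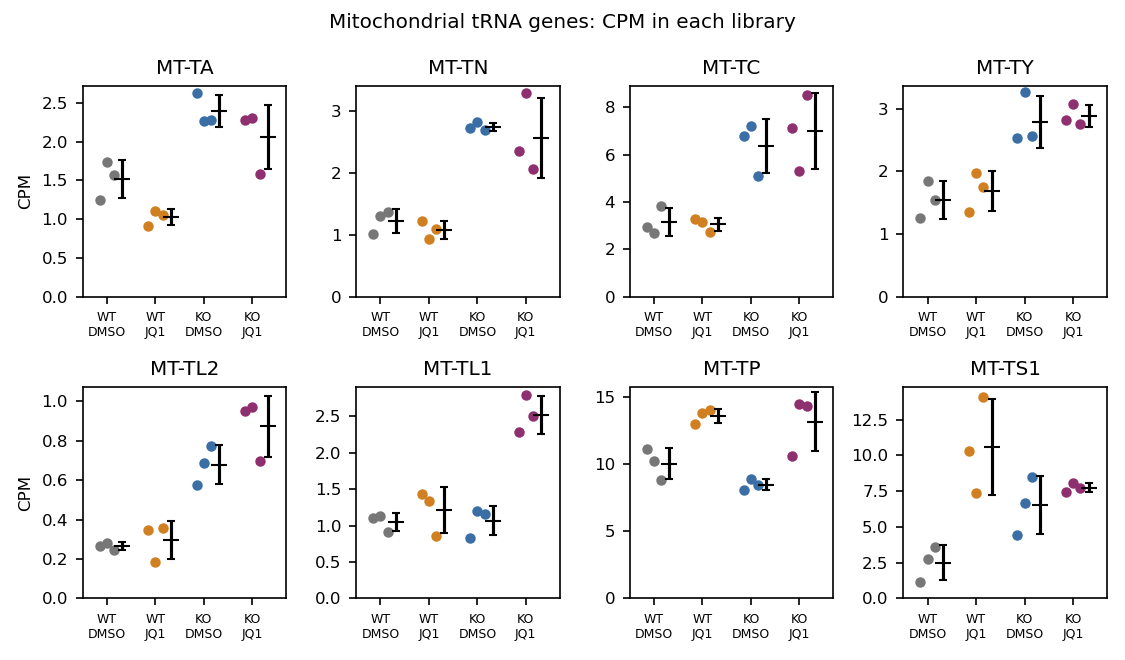
CPM of the tRNAs that the comparisons turn on in each library, by group, with the mean ± SD of 3 replicates. MT-TA, MT-TN, MT-TC, MT-TY and MT-TL2 are higher in knockout libraries, MT-TS1 is lowest in wild-type DMSO libraries and MT-TL1 is highest in knockout JQ1 libraries.

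Few of the remaining members passed a test. MT-TE, MT-TV, MT-TM, MT-TW and MT-TT passed the filter and were called in no contrast. The other 9 tRNAs, MT-TF, MT-TI, MT-TQ, MT-TD, MT-TK, MT-TG, MT-TR, MT-TH and MT-TS2, did not pass it and were at 0 to 0.33 CPM in every library. Without the filter 1 of them was called for JQ1 in wild-type cells, MT-TF, the tRNA for phenylalanine, on 9, 8 and 12 counts with DMSO against 2, 1 and 2 with JQ1 (-2.36, adjusted p = 0.0142). MT-RNR1 and MT-RNR2 had fold changes of -1.16 (adjusted p = 0.347) and -1.59 (adjusted p = 0.246) in the averaged knockout contrast.

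Measured against each other, the mitochondrial transcripts also shifted in proportion. MT-CO1 made up 30.9% ± 0.449 (SD, n = 3) of the mitochondrial mRNA counts in wild-type DMSO libraries, 29.9% ± 0.732 in wild-type JQ1 libraries, 35% ± 2.17 in knockout DMSO libraries and 31.3% ± 1.28 in knockout JQ1 libraries. When the 13 mRNAs served as the library size, an alternative added after the data were seen, MT-ATP6 and MT-ND4 were still called lower in the averaged knockout contrast (-0.16 each, adjusted p = 0.0138 and 0.0137). MT-CO1 had 0.12 (adjusted p = 0.0507) and MT-CO2 0.11 (adjusted p = 0.0728) on that scale. The 4 neighbouring tRNAs had log2 fold changes of 1.04 for MT-TA, 1.41 for MT-TN, 1.31 for MT-TC and 1.03 for MT-TY relative to the mRNAs.

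Nuclear copies of mitochondrial DNA could take reads from the members. The table lists 405 such symbols, of which 202 had a count, and together they held 1.27% to 1.96% of the count of the members. MTATP6P1 on chromosome 1 (chr1:633696-634376), 98.5% identical to MT-ATP6, held counts equal to 14.3% to 21.2% of those of MT-ATP6. MTND2P28 (98.4% identical to MT-ND2) held 2.1% to 2.99%, MTND1P23 (99.1%) 0.229% to 0.502% and MTCO1P12 (98.6%) 0.0207% to 0.0323% of their mitochondrial counterparts. With the copies added to the members, an alternative also chosen after the data were seen, the averaged knockout fold change was -0.36 for MT-ATP6 (adjusted p = 0.000492) and -0.23 for MT-ND2 (adjusted p = 0.000417). MTND2P28 itself had -0.27 (adjusted p = 0.00991) in the same contrast. Adding the copies ended the call of MT-ATP6 for JQ1 in wild-type cells (0.21, adjusted p = 0.0609), which was also lost in 9 further alternatives.

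The nuclear genes of the respiratory chain did not share the decline of the mitochondrial mRNAs in knockout cells. Of 76 nuclear-encoded subunits tested, 23 were called higher and none lower in the averaged contrast (median log2 fold change 0.12 beside 0.00 over all genes, of which 6.48% were called higher). They comprised 11 of 37 subunits of complex I, 4 of 9 of complex III, 1 of 11 of complex IV, 7 of 15 of ATP synthase and 0 of 4 of complex II. Examples in complex I were NDUFS8 (0.41, adjusted p = 0.000694), NDUFA13 (0.21, adjusted p = 0.00294) and NDUFA1 (0.19, adjusted p = 0.00462). In complex III UQCRQ (0.22, adjusted p = 0.000728), UQCR11 (0.25, adjusted p = 0.00538) and UQCRFS1, the Rieske iron-sulfur protein (0.19, adjusted p = 0.00787), rose. COX5A rose in complex IV (0.13, adjusted p = 0.0258), and ATP5E (0.28, adjusted p = 0.000299), ATP5G1 (0.20, adjusted p = 0.0109) and ATP5A1 (0.13, adjusted p = 0.0184) in ATP synthase.

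The count of 23 depended on single libraries and on scaling. It was 14 without wild-type DMSO replicate 2, 15 without wild-type JQ1 replicate 2, 10 with library totals and 74 with the 13 mitochondrial mRNAs as library size, in each case with none lower. With the mRNAs as library size the median log2 fold change over all genes moved to 0.21, and with library totals to -0.04. The shares of all genes called under these settings are not given here, so the counts are not read as particular to the respiratory chain. In the main analysis 5 of the 76 were called with DMSO alone and 9 with JQ1 alone, all higher. Mitochondrial ribosomal proteins gave 11 of 79 higher and 1 lower in the averaged contrast, led by MRPL57 (0.30, adjusted p = 0.000475), MRPL36 (0.25, adjusted p = 0.00166) and MRPL51 (0.20, adjusted p = 0.00185).

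Of 8 genes that transcribe mitochondrial RNA 2 were called between genotypes, and of 21 that process or degrade it 4 were called. With 14.8% called over all genes, nothing particular to these lists is read from the counts. The RNA polymerase POLRMT (0.02, adjusted p = 0.92) and TFAM, which packages the genome and starts transcription (-0.03, adjusted p = 0.802), did not pass the test. TFB2M, the initiation factor that opens the promoter, stood at 53.7 ± 2.2 CPM in wild-type DMSO libraries, 44.9 ± 1.54 in wild-type JQ1 libraries, 42.1 ± 1.55 in knockout DMSO libraries and 35.4 ± 0.499 in knockout JQ1 libraries (SD, n = 3). It fell in the knockout by 0.35 on the log2 scale (SE 0.04, adjusted p = 3.75e-05), while MTERF3 rose (0.20, adjusted p = 0.046), so that 2 of 8 transcription genes were called.

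In RNA processing and decay 3 of 21 genes rose and 1 fell; this count and those of the smaller lists that follow stand beside 6.48% of all genes higher and 8.27% lower, and nothing particular to the lists is read from them. HSD17B10, a subunit of the mitochondrial RNase P that frees the 5′ ends of tRNAs, rose by 0.27 (adjusted p = 0.000227), and the oligoribonuclease REXO2 by 0.34 (adjusted p = 1.03e-05). ANGEL2 fell (-0.43, adjusted p = 4.47e-05). LRPPRC (-0.05, adjusted p = 0.584) and SLIRP (0.07, adjusted p = 0.273), which form the complex that stabilises mitochondrial mRNAs, did not pass. Of 17 mitochondrial tRNA synthetases 4 rose and 3 fell, among them IARS2 (-0.48, adjusted p = 6.23e-07), TARS2 (0.27, adjusted p = 0.000925) and EARS2 (0.21, adjusted p = 0.00353). In rRNA modification TFB1M fell (-0.35, adjusted p = 0.000259) and NSUN4 rose (0.27, adjusted p = 0.0271), of 12 genes. In replication PRIMPOL (0.26, adjusted p = 0.014) was the 1 of 10 called. Of 9 regulators of biogenesis MYC rose (0.43, adjusted p = 0.0011) and PPARGC1A fell (-1.03, adjusted p = 0.0162), the latter at 0.336 CPM or less in the DMSO groups.

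A total of 8 nuclear genes from these lists were called lower in the averaged knockout contrast, and 4 of them, ANGEL2, IARS2, MRPL55 and TFB2M, lie on chromosome 1 beyond the end of MAPKAPK2, toward higher coordinates in GRCh38. These were all 4 tested list genes with a known place there; a place was found for 217 of the 232 tested. The part of chromosomal position in their levels was not tested.

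**Figure D5:**
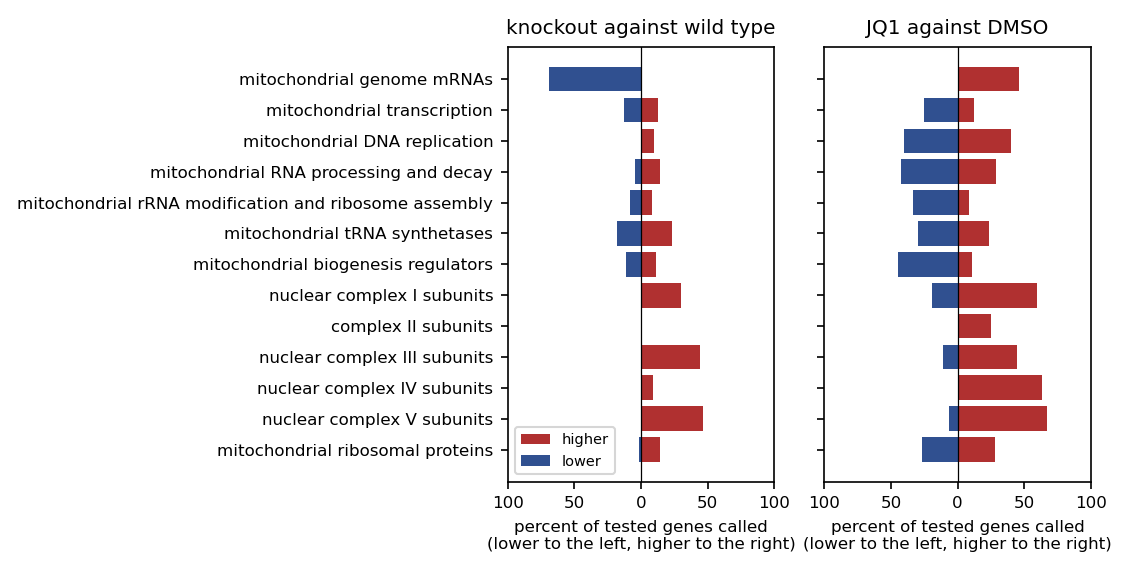
Share of genes called higher or lower (percent of each list) in the averaged knockout and JQ1 contrasts, for the 13 mitochondrial mRNAs and the fixed lists of nuclear genes. In the knockout contrast 9 of the 13 mitochondrial mRNAs are called lower, while no subunit in the lists for nuclear complexes I to V is called lower.

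With JQ1, 22.4% of all genes were called higher and 23.4% lower, against which the counts of the nuclear lists with TMM scaling stand. With library totals the median log2 fold change over all genes was -0.15. The shares of all genes called under that scaling are not given here, so list counts with library totals are not read as particular to the lists. Of the 76 nuclear respiratory chain subunits 44 were called higher and 9 lower averaged over genotypes (median 0.14 beside -0.02 over all genes), among them NDUFB2 (0.83, adjusted p = 1.5e-09), NDUFA2 (0.61, adjusted p = 3.35e-08) and COX6A1 (0.61, adjusted p = 2.74e-08), all higher. With library totals the split was 26 higher and 19 lower. Mitochondrial ribosomal proteins went both ways, with 22 of 79 higher and 21 lower, near the shares over all genes, and with 11 higher and 39 lower under library totals. In transcription POLRMT rose (0.32, adjusted p = 0.00828), while TFB2M (-0.25, adjusted p = 0.000155) and MTERF1, a termination factor (-0.30, adjusted p = 0.00248), fell, and TFAM was not called (0.02, adjusted p = 0.859).

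Of 21 RNA processing and decay genes 6 rose and 9 fell with JQ1, beside 22.4% and 23.4% of all genes with TMM scaling. Under library totals, without a share over all genes beside them, 2 were called higher and 13 lower. FASTK, which stabilises the MT-ND6 mRNA, rose by 0.74 (adjusted p = 4.02e-07), and PNPT1, the mitochondrial polynucleotide phosphorylase, fell (-0.83, adjusted p = 3.72e-05). LRPPRC fell (-0.17, adjusted p = 0.0109) and SLIRP was not called (-0.01, adjusted p = 0.885). In replication 4 of 10 rose and 4 fell (2 and 6 under library totals), with POLG, the DNA polymerase, at 0.72 (adjusted p = 1.62e-05). Of 9 regulators of biogenesis 1 was called higher and 4 lower. Among them MYC fell (-0.21, adjusted p = 0.0365), and the 1 called higher was PPARGC1A, a coactivator of mitochondrial biogenesis genes. PPARGC1A rose (1.28, adjusted p = 0.000999) from low levels. In the test of whether the JQ1 response differed between genotypes, the single nuclear chain gene called was COX6C (0.76, adjusted p = 0.0395), at 13 ± 0.786 CPM in wild-type DMSO libraries, 9.82 ± 0.372 in wild-type JQ1 libraries, 11 ± 1.17 in knockout DMSO libraries and 14.1 ± 0.724 in knockout JQ1 libraries (SD, n = 3).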

How the data were processed

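RNA was measured in 12 libraries of A375 cells. Directional libraries were made from RNA depleted of ribosomal RNA, per the labels' protocols. The deposited files hold estimated counts per gene symbol and the authors' normalized signal for 32828 genes, used here only in an alternative analysis. The submitters' processing notes name Trim Galore, cutadapt, FastQC, MultiQC, kallisto, DESeq2 and GRCh38.p10; which step made each table, and whether counting used the strand, are not given in the sources used here.

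Counts were rounded to whole numbers, because the deposited values need not be whole, filtered with filterByExpr (21698 of 56609 symbols kept), scaled with TMM (factors 0.926 to 1.06) and fitted over all 12 libraries with edgeR 4.0.16 (quasi-likelihood, R 4.3.3, limma 3.58.1). Benjamini-Hochberg adjustment covered all genes tested, with a threshold of 0.05. The prior count of fold changes was 0.125. The averaged contrasts take the mean of the knockout effect over treatments, or of the JQ1 effect over genotypes. Shares of a library were compared by exact permutation tests within the other factor. CPM per kb used lengths from GENCODE release 29. The fit was tested on simulated data.

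Members and gene lists were chosen with earlier results of these data known. All 13 mRNAs and 2 rRNAs, and the tRNAs that passed the filter, are named. Rules allowed up to 3 genes of each nuclear list (those with the lowest adjusted p), and POLRMT, TFAM, TFB2M, LRPPRC, SLIRP, PPARGC1A and MYC, to be named; they are given for the averaged contrasts and the interaction, where COX6C was the single gene called. ANGEL2, IARS2, MRPL55 and TFB2M are also named together for their position, chosen after their values were seen. Alternatives were another threshold, scaling, filter, tool, a replicate block and each library left out. 1 gene that the naming rule would name is not reported here.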

Additional observations from a re-analysis of the deposited data

How the results depend on the processing

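The lower mitochondrial share in knockout cells kept its direction and its side of the threshold in every alternative run. Between treatments the share turned to 0.08 (exact permutation p = 0.05) for all members and for the mRNAs against TMM-scaled nuclear counts. Leaving out each library in turn gave log2 differences from -0.28 to -0.23 for the share of all members and from -0.28 to -0.24 for the mRNAs between genotypes, and from -0.06 to -0.01 for both between treatments. The rRNA share ranged from -0.91 to 0.32 between genotypes, turning to 0.32 without wild-type DMSO replicate 2, and from 0.54 to 1.66 between treatments, and without wild-type DMSO replicate 2 the treatment difference of 1.66 passed the test (exact permutation p = 0.03). Members called ranged from 3 to 6 for JQ1 in wild-type cells, from 4 to 9 for JQ1 in knockout cells, from 10 to 16 for the knockout with DMSO, from 8 to 14 for the knockout with JQ1, from 7 to 11 for JQ1 averaged and from 14 to 18 for the knockout averaged. The interaction gave 0 to 0.

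Shares of all genes called under the alternatives of this section are not given here. Counts of members under them show how far the calls moved and are not read as particular to the members. At an adjusted p of 0.01, 2 members were called for JQ1 in wild-type cells, 8 for the knockout with DMSO and 6 for JQ1 averaged. Without the filter on low counts 8 were called for JQ1 in wild-type cells (5 higher; MT-RNR1, MT-RNR2 and MT-TF lower) and 3 in the interaction (MT-RNR1, MT-RNR2 and MT-TS1), and DESeq2 called 1 in the interaction. A fit of only the groups compared called 8 for JQ1 in wild-type cells; it gives no value for the averaged contrasts and the interaction. With library totals as scaling 6 were called for JQ1 averaged (4 higher, 2 lower), and the knockout contrasts had 6 higher and 12 lower averaged, 5 and 9 with DMSO, and 6 and 6 with JQ1. With the 13 mitochondrial mRNAs as library size 3 members were called for JQ1 in knockout cells, 9 for the knockout with DMSO, 6 for JQ1 averaged and 9 for the knockout averaged, and MT-ND2 in the knockout with JQ1 turned to 0.04. That scale is relative to the mRNAs by its own construction; for the other changes the cause was not tested.

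The replicate numbers gave no sign of a pairing of the samples, though a pairing is not excluded. Deviations of libraries with the same number in different groups correlated at -0.115 to 0.0786 across genes (median -0.0036, 18 pairs), and those with different numbers at -0.136 to 0.106 (median 0.0098, 36 pairs). With a replicate block 3 members were called for JQ1 in wild-type cells, 6 for JQ1 in knockout cells, 14 for the knockout with DMSO, 9 for the knockout with JQ1, 10 for JQ1 averaged, 15 for the knockout averaged and 0 in the interaction. The share of all members differed by -0.26 between genotypes (exact permutation p = 0.0312) and by -0.04 between treatments (p = 0.188) with the block.

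Of the other values, called members kept direction and call in 1214 cases and kept only the direction in 140. The tRNA levels rest on few counts, with MT-TL2 at 5 to 25 per library, and the rRNA levels on what depletion left.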
